A study of Mus musculus with 4 samples.

Results

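The EBF family and the main transcription factors of the B lineage were followed across a JQ1-sensitive (JQ1S) and a JQ1-resistant (JQ1R) Eμ-Myc cell line, with 2 RNA sequencing libraries from each. The group holds 10 of the 16591 genes in the count table, Ebf1, Ebf3, Pax5, Tcf3, Ikzf1, Ikzf3, Foxo1, Pou2af1, Spib and Bach2, and all 10 passed the filter on low counts that left 11945 tested genes. The list was chosen by name, selected on the counts of these 4 libraries in that it was drawn up around the measured rise of Ebf3 in the resistant line, so their differences between the lines are given as a description and without p-values. Eμ-Myc cells are mouse B-lymphoma cells that carry a Myc transgene driven by an immunoglobulin heavy-chain enhancer, here on a C57BL/6 background in both lines, and JQ1 blocks the bromodomains of BET proteins, readers of acetylated histones. Both lines were grown at early passage in the same medium, and the labels name no drug in it. Each state is represented by a single line, so resistance and any other difference between the lines cannot be told apart. Nothing says that the libraries of a line came from separate cultures, so the spread within a line may be technical.

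B-cell identity is built by a small network of DNA-binding factors. E2A, encoded by Tcf3, and FOXO1 act early and help to switch on EBF1, the factor that commits progenitors to the B lineage, and EBF1 in turn activates Pax5, which keeps other lineage programs silent. Ikaros and Aiolos, encoded by Ikzf1 and Ikzf3, and the ETS factor SPIB, the coactivator OBF-1 (Pou2af1) and the repressor BACH2 act through later B-cell stages. EBF3 is a close relative of EBF1 with the same kind of DNA-binding domain that is better known from neurons and bone marrow stroma.

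Total counts ranged from 10346007 to 13048103 per library, so that 1 count equalled 0.0771 to 0.0972 CPM (counts relative to the library total, scaled with TMM factors). The libraries of the sensitive line differed more from each other than those of the resistant line, with a median absolute log2 difference of 0.12 against 0.08 over the tested genes. B-cell markers were abundant in every library, where the 6 listed (Cd79a, Cd79b, Cd22, Blnk, Vpreb3 and Ptprc) summed to 1480 to 1505 CPM in the sensitive and 1588 to 1634 CPM in the resistant line. Stromal cells, which express Ebf3, were represented by 1 of 7 markers with a row in the table, Lepr, at 0.0972 to 0.337 CPM, and Col1a1, Col1a2, Col3a1, Pdgfra, Pdgfrb and Cxcl12 had none. Of 5 neuronal markers, Map2 (10.8 to 12.8 CPM) and Tubb3 were tested and neither was called different. Tubb3 stood at 2.08 and 2.43 CPM in the sensitive and 3.02 and 3.96 CPM in the resistant libraries, without overlap and in the same direction as Ebf3 (log2 change 0.65 ± 0.26, edgeR adjusted p = 0.205), and its part in the values of Ebf3 was not tested. T-cell, NK, erythroid and myeloid markers each summed to at most 2.29 CPM per cell type in any library. Other lists summed to more, with 372 to 420 CPM for plasma-cell and 2.56 to 4.24 CPM for adipocyte markers. Of the plasma-cell sum, Irf4 gave 333 to 378 CPM. The endothelial list summed to 88.6 to 100 CPM, of which Pecam1 gave 87.2 to 99.1 CPM. In bulk RNA, a change in the number of cells that express a gene and a change per cell cannot be told apart.

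The sequences before the starts of Ebf3 and Ebf1 are shown because the results turn on this pair. The RefSeq table of GRCm38.p6 gives 1 start for Ebf3 and 2 for Ebf1, and each window holds the 250 bases before a start, written 5′ to 3′ on the strand of the gene with CG dinucleotides in capitals.
Ebf3, chr7:137314446-137314695, minus strand: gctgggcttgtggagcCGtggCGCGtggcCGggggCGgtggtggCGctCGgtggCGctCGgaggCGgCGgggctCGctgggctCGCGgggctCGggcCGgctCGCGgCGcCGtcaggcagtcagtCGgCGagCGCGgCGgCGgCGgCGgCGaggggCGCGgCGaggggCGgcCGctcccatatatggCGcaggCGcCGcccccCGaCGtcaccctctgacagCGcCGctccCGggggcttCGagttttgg
Ebf1, upstream start, chr11:44617850-44618099, plus strand: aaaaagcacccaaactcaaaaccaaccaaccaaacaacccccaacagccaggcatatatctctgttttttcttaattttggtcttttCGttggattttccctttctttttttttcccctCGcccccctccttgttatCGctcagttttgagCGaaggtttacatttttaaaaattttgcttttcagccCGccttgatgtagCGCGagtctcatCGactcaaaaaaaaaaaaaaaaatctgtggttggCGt
Ebf1, downstream start, chr11:44619978-44620227, plus strand: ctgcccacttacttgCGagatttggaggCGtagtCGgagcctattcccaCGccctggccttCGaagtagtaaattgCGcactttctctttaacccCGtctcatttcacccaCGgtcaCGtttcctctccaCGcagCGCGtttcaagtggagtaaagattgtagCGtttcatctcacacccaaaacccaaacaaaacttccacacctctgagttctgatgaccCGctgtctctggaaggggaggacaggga
The Ebf3 window held 43 CG dinucleotides and 80.0% G and C, against 9 and 40.0% at the upstream and 14 and 52.0% at the downstream start of Ebf1. The windows are not alike in place. Both Ebf1 windows lie inside the annotated gene, which starts at 44617317, whereas that of Ebf3 lies directly before its gene. A stretch just after the downstream Ebf1 start was found in no annotated transcript of Ebf1. Over 32817 promoter windows of the same length the medians were 6 CG dinucleotides and 52.4% G and C, and 99.3% of the windows held fewer CG dinucleotides than that of Ebf3. A window of Ikzf1, not shown, held more of both than that of Ebf3, with 44 CG dinucleotides and 82.0% G and C. The EBF consensus TCCCNNGGGA, a palindrome, was absent from the 3 windows. It occurred in 0.780% of all windows and, among the 11 windows found for 9 of the 10 factors, in 1, that of Foxo1. The Ikaros core TGGGAA, on either strand, occurred once, in the downstream Ebf1 window, and in 21.6% of all windows. No window of the factors held the E2A letters CAGGTG, the FOXO letters GTAAACA, the OCT letters ATGCAAAT or the SPI letters GAGGAAGT on either strand, which occur in 17.2%, 3.16%, 1.60% and 2.44% of all windows. These matches describe letters and not binding.

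Ebf3 stood far apart from the other factors. The sensitive line gave 133 and 124 counts of it and the resistant line 556 and 599, or 10.3 and 12.1 CPM against 50.9 and 50.4 CPM. Both resistant libraries were high and both sensitive ones low, with no overlap. The fitted difference was 4.57-fold (95% interval 3.94 to 5.31), a log2 change of 2.19 ± 0.10 (SE, n = 2 per line). By log2 change Ebf3 ranked 25 among all 11945 tested genes, and 6 among the 322 called genes whose log2 CPM averaged 3 or more. Ebf3 (ENSMUSG00000010476) lies on the minus strand of chromosome 7 at 137193673 to 137314445 of GRCm38.

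Ebf1, its close relative, was the more abundant of the pair and was similar in both lines. Its counts were 2318 and 2031 in the sensitive and 2149 and 2100 in the resistant libraries, or 179 and 197 CPM against 197 and 177 CPM. The libraries of the lines overlapped, and each line held 1 library near 178 and 1 near 197. The log2 change was -0.01 ± 0.07, and its 95% interval ran from 0.900-fold to 1.10-fold, so a change of Ebf1 on the scale of that of Ebf3 lies outside it. The sign of this value was positive in 4 of 12 settings of the analysis. Ebf1 (ENSMUSG00000057098) lies on chromosome 11 at 44617317 to 45008091.

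Set against each other within a library, which needs no scaling between libraries, Ebf3 made up 5.43% (exact 95% interval 4.56 to 6.40, counting error only) and 5.75% (4.81 to 6.82) of the counts of both genes in the sensitive libraries. In the resistant libraries it made up 20.6% (19.0 to 22.1) and 22.2% (20.6 to 23.8). Per kb of exon there were 6.07 and 6.46 Ebf3 counts for every 100 Ebf1 counts in the sensitive line, against 27.4 and 30.2 in the resistant line, a 4.59-fold difference of the means. Ebf1 therefore remained the main EBF transcript in every library. The sum of both, in CPM per kb of exon, was 20.5 ± 1.5 (SD, n = 2) in the sensitive and 24.6 ± 1.48 in the resistant line. No stretch of 50 bases was shared between the annotated transcripts of Ebf1 and Ebf3. Of the exonic bases of Ebf3, 3.85% overlap Gm45278 on the other strand, which has no row in the table used here. Ebf2 and Ebf4, the remaining members of the family, and the EBF partners Zfp521 and Zfp423 have no row either, in a table whose lowest total is 4 counts over the 4 libraries.

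**Figure D1:**
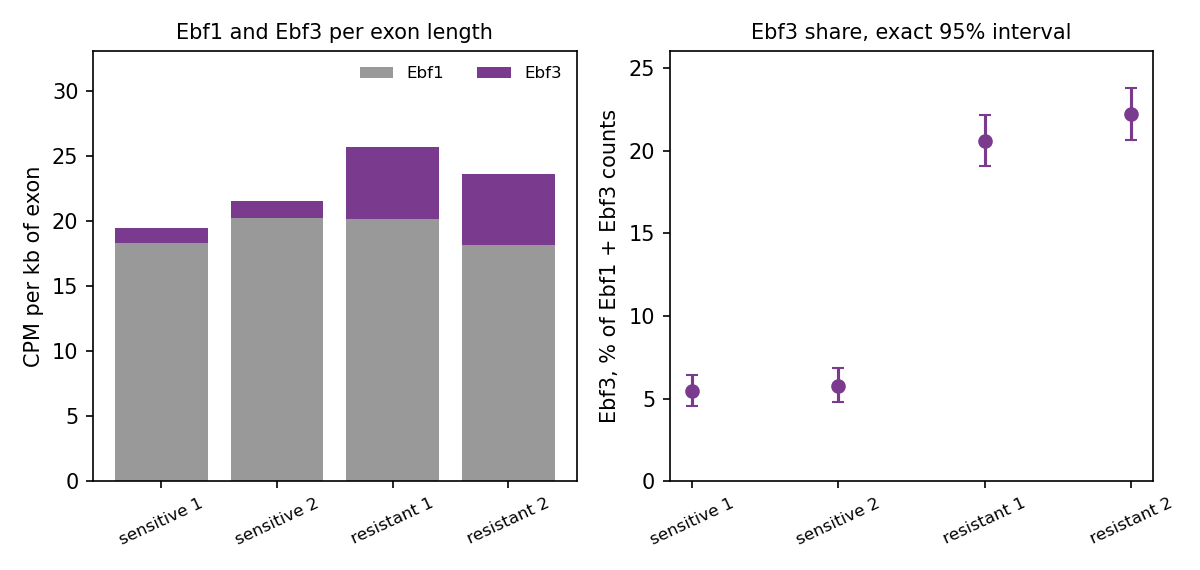
Left, Ebf1 and Ebf3 in CPM per kb of exon, stacked, in each library. Right, the share of Ebf3 in the counts of both genes with its exact 95% interval for counting error; the sensitive libraries lie at 5.43% and 5.75% and the resistant ones at 20.6% and 22.2%.

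The early factors upstream of EBF1 had slightly lower values in both resistant libraries, without passing the test over all genes. Tcf3, encoding the E proteins E12 and E47, stood at 511 and 552 CPM in the sensitive and 472 and 465 CPM in the resistant libraries. Its lines did not overlap, with a difference of -11.9% (95% interval -18.9 to -4.26%, not adjusted for the number of genes) and a log2 change of -0.18 ± 0.06. It was called by edgeR only without sensitive replicate 1, the lower of that pair for Tcf3, where its log2 change was -0.24. Foxo1, a forkhead factor restrained by PI3K and AKT signalling, stood at 59.9 and 61.9 CPM against 56.1 and 52.5 CPM. Here too the lines did not overlap, the log2 change was -0.16 ± 0.07 and the difference -10.8% (-19.8 to -0.759%). Of its exonic bases, 7.78% overlap Gm20402 on the opposite strand, and the strand setting of the counting was not given in the sources used here.

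Pax5, the guardian of B-cell commitment, showed 102 and 112 CPM in the sensitive and 105 and 102 CPM in the resistant libraries. The resistant libraries lay within the range of the sensitive ones, and the log2 change was -0.04 ± 0.07 (interval -11.9 to 7.05%). In its exons, 8.60% of bases overlap other genes on the opposite strand, so its counts there may depend on the strand setting, which was not given.

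Ikaros and Aiolos, zinc finger factors that restrain proliferation of pre-B cells, differed little. Ikzf1 stood at 648 and 606 CPM in the sensitive and 632 and 624 CPM in the resistant line, with the resistant pair inside the sensitive range and a log2 change of 0.00 ± 0.05 (interval -7.59 to 8.53%). Ikzf3 stood at 202 and 200 CPM against 210 and 214 CPM, a separation without overlap but of only 5.41% (log2 change 0.08 ± 0.06).

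The later factors were as close. Pou2af1, the OCT coactivator OBF-1 needed for germinal centres, had 875 and 867 CPM in the sensitive and 890 and 886 CPM in the resistant line, which did not overlap and differed by 1.92% (log2 change 0.03 ± 0.05). Spib, an ETS factor related to PU.1, had 175 and 194 CPM against 190 and 198 CPM, overlapping, with a log2 change of 0.08 ± 0.06. Bach2, a repressor of the plasma-cell program, had 265.1 and 264.7 CPM against 250 and 267 CPM, also overlapping, with a log2 change of -0.04 ± 0.06, and 5.40% of its exonic bases overlap Bach2os on the opposite strand. The 95% intervals of these 3 together span differences from -10.3% (Bach2) to 15.5% (Spib).

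**Figure D2:**
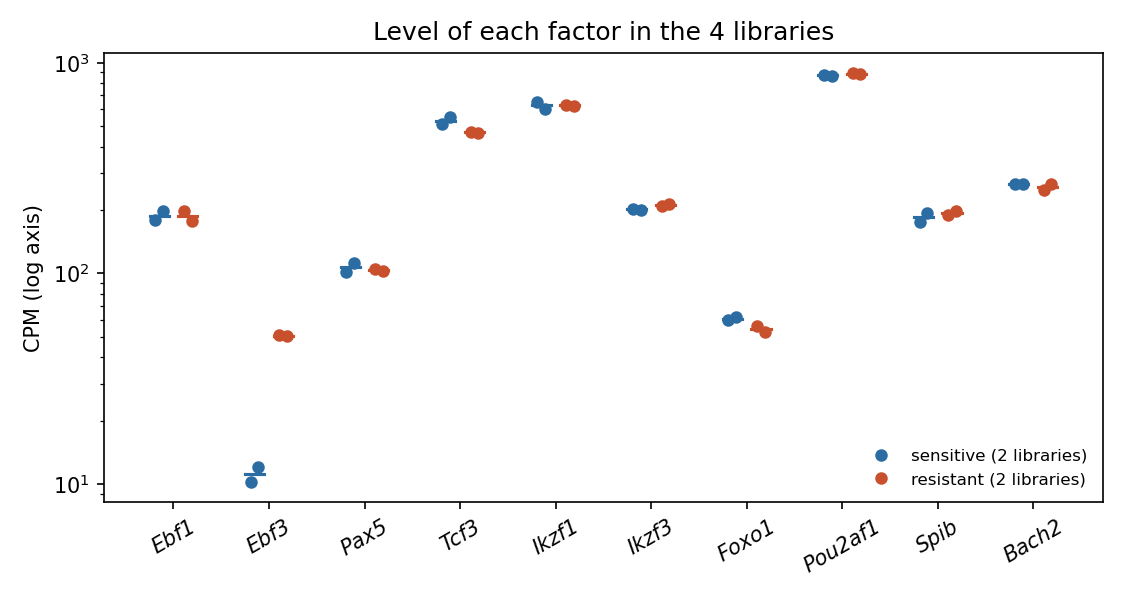
CPM of the 10 factors on a log axis, 1 point per library (blue sensitive, red resistant) with a bar at the mean of 2 libraries. Ebf3 moves from 10.3 and 12.1 to 50.9 and 50.4 CPM, and the points of the other factors lie close together.

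In all, 1 of the 10 factors was called by edgeR at an adjusted p below 0.05, Ebf3, against 3.73% of all tested genes, and nothing is read from this share since the list was built around that rise. DESeq2 also called 1, against 1.74% of all tested genes, as did the fit with the replicate number as a block, against 4.98%. The lines were separated without overlap for 5 of 10 factors, against 47.3% of all tested genes. Ebf3, Ikzf3 and Pou2af1 were on the higher side (24.1% of all tested genes) and Tcf3 and Foxo1 on the lower (23.2%). The median log2 change was -0.01 over the 9 factors other than Ebf3 and 0.00 over all tested genes, and their median absolute log2 change was 0.04 against 0.11. These 9 had an average log2 CPM of 5.85 to 9.78, whereas the tested genes include scarcer ones, so this comparison is not matched for level. Between the 2 libraries of a line the 10 factors differed by at most 0.23 (log2, Ebf3 in the sensitive line) and 0.15 (Ebf1 in the resistant line).

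**Figure D3:**
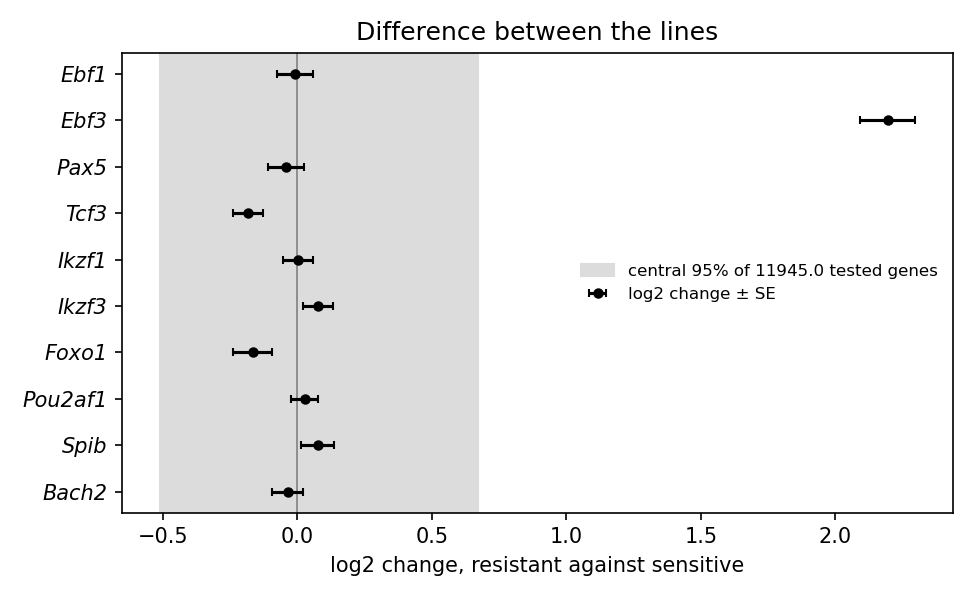
Log2 change of each factor, resistant against sensitive, with its SE (n = 2 per line), over a grey band that holds the central 95% of the tested genes (-0.51 to 0.67). Ebf3 lies at 2.19 and the other 9 lie between -0.18 and 0.08, inside the band, which is not matched for expression level.

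Compared per kb of exon, the factors kept 1 order in both lines, with no overlap between neighbours in either. Pou2af1 was highest (342 ± 2.07 CPM per kb, SD, n = 2, in the sensitive and 348 ± 1.09 in the resistant line), followed by Tcf3 (132 ± 7.22 and 116 ± 1.11), Ikzf1 (109 ± 5.06 and 109 ± 1.02), Spib, Bach2, Ikzf3, Ebf1 (19.3 ± 1.36 and 19.1 ± 1.45), Pax5, Foxo1 and Ebf3. Ebf3 was last in both lines, at 1.21 ± 0.14 and 5.49 ± 0.04 CPM per kb. In the resistant line it came close to Foxo1, whose lower library stood at 6.06 CPM per kb against 5.52 for the higher Ebf3 library, whereas in the sensitive line these stood at 6.91 and 1.31. Lengths are those of all annotated exons and not of the transcripts present, so this order holds for that measure. The longest annotated transcript has 4994 bases for Ebf3 and 8665 for Foxo1. With that length and by the means of each line, Ebf3 would lie above Foxo1 in the resistant line. Ikzf3 and, narrowly, Ebf1 would lie above Bach2 in both lines.

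Other regulators of the lineage, listed by name, mostly did not pass the test. Of 51, 42 had a row and 35 were tested, of which 2 were higher and 1 lower (edgeR, adjusted p below 0.05), beside 2.2% of all tested genes higher and 1.52% lower. Their median log2 change was 0.00, as over all tested genes. The 3 were Id2, Id3 and Myb. DESeq2 called 0 of the 35, beside 1.74% of all tested genes, and 11 had an unadjusted edgeR p below 0.05, beside 16.9%. This list and the target lists below were chosen with earlier results of these data known, so their shares are a description.

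ID proteins bind E proteins and keep them off DNA, and the pair detected here moved in opposite directions. Id2, which favours innate lymphoid and myeloid fates, was scarce, at 0.848 and 1.36 CPM in the sensitive and 2.29 and 3.54 CPM in the resistant libraries. It rose 2.71-fold (log2 change 1.44 ± 0.35, edgeR adjusted p = 0.0285), but the adjusted p was 0.327 in DESeq2, 0.0706 without sensitive replicate 1 and 0.380 without resistant replicate 2. Id3, another member of the family, fell from 31.0 and 30.5 CPM to 21.7 and 25.7 CPM (log2 change -0.37 ± 0.10, adjusted p = 0.0485). The adjusted p became 0.0656 when scaled by library size only, 0.0609 with upper-quartile factors, 0.390 in DESeq2 and 0.509 without resistant replicate 1. Of the other E proteins, Tcf4 stood at 95.6 and 101 CPM against 95.8 and 101 CPM (log2 change 0.00, edgeR adjusted p = 0.984), and Tcf12 had a log2 change of 0.02 (adjusted p = 0.912).

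Myb, a factor of proliferating progenitors, rose from 346 and 394 CPM to 435 and 438 CPM (log2 change 0.24 ± 0.06, edgeR adjusted p = 0.0464). The call was lost in DESeq2 (adjusted p = 0.0851) and without either resistant library (0.240 and 0.312), and the log2 change was 0.15 without sensitive replicate 1. Among those that were not called, the ETS factor PU.1 (Spi1) had a log2 change of -0.18 (adjusted p = 0.176), Irf4 of -0.10 (0.404) and Irf8 of 0.11 (0.415). Without sensitive replicate 1, Spi1 and Irf4 were called lower (edgeR adjusted p = 0.00842 and 0.00732). Prdm1, the plasma-cell master regulator that BACH2 represses, had 0 counts in both sensitive libraries and at most 0.183 CPM in the resistant ones and was not tested. Sdc1, another listed plasma-cell marker, went the other way, from 19.6 and 17.9 CPM to 10.8 and 12.3 CPM (log2 change -0.70 ± 0.12, edgeR adjusted p = 0.00245). Xbp1 had a log2 change of 0.01 (edgeR adjusted p = 0.978).

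Genes that EBF1, E2A and PAX5 are known to activate rose in part. Of 22 listed, 18 had a row and 15 were tested, of which 4 rose and 0 fell by edgeR, beside 2.2% and 1.52% of all tested genes, and 9 had an unadjusted p below 0.05, beside 16.9%. Their median log2 change was 0.13 against 0.00 over all tested genes, and 12 of the 15 had positive values, as had 50.9% of all tested genes. Nothing is read from these shares, since the list was chosen with earlier results of these data known. Ms4a1, which encodes CD20, rose 5.66-fold, from 1.31 and 1.36 CPM to 8.15 and 7.07 CPM (adjusted p = 4.28e-06). Blk, a SRC-family kinase of B cells, rose from 10.4 and 10.3 CPM to 15.3 and 15.2 CPM (0.56 ± 0.12, adjusted p = 0.0159). The inhibitory receptor Cd22 rose from 136 and 144 CPM to 172 and 168 CPM (0.28 ± 0.06, adjusted p = 0.0129). Vpreb3, a B-lineage relative of the surrogate light chain gene Vpreb1, rose from 222 and 204 CPM to 247 and 251 CPM (0.22 ± 0.06, adjusted p = 0.0456).

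In each of these 4 every resistant library exceeded both sensitive ones, which is likely for genes picked by their call. Of the 15 tested genes of this list, 12 showed no overlap between the lines, beside 47.3% of all tested genes. Blk and Vpreb3 were not called in DESeq2 (adjusted p = 0.277 and 0.139), and Blk, Vpreb3 and Cd22 were not called without resistant replicate 1 (0.0521, 0.299 and 0.215) or without resistant replicate 2 (0.0689, 0.432 and 0.110). The classic EBF1 targets Cd79a, at 425 and 452 CPM against 453 and 427 CPM (log2 change 0.01, edgeR adjusted p = 0.980), and Cd79b (0.12, adjusted p = 0.278, or 0.0303 without sensitive replicate 1) did not pass the test. Igll1 and Vpreb1, the surrogate light chain genes, had at most 0.275 and 0.589 CPM in any library and were not tested.

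Genes activated by FOXO1 split in direction. Of 8 tested among 9 listed, 1 rose and 2 fell in edgeR, beside 2.2% and 1.52% of all tested genes, with a median log2 change of -0.24 against 0.00. Rag1, the catalytic subunit of the V(D)J recombinase, fell 2.13-fold from 116 and 118 CPM to 55.6 and 54.0 CPM (log2 change -1.09 ± 0.07, adjusted p = 1.63e-08), and the interleukin-7 receptor Il7r fell from 117 and 126 CPM to 90.1 and 96.9 CPM (-0.38 ± 0.07, adjusted p = 0.00271, or 0.0792 without resistant replicate 1). Rag2, its partner, had a log2 change of -0.37 but did not pass (edgeR adjusted p = 0.0594). It was called lower with no filter (0.0482) and without sensitive replicate 1 (5.01e-04). The cell-cycle inhibitor Cdkn1b (p27) rose from 67.7 and 76.5 CPM to 88.9 and 98.6 CPM (0.38 ± 0.08, adjusted p = 0.00737, or 0.159 without resistant replicate 2). All 8 tested genes of this list, called or not, showed no overlap between the lines, beside 47.3% of all tested genes.

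Genes of other lineages or stages that PAX5 or EBF1 hold down did not move one way. Of 15 listed, 9 had a row and 7 were tested, of which 1 rose and 1 fell in edgeR, beside 2.2% and 1.52% of all tested genes, with a median log2 change of -0.34 against 0.00. DESeq2 called 0, beside 1.74% of all tested genes, while 4 had an unadjusted edgeR p below 0.05, beside 16.9%. Of the 7, 2 had positive and 5 negative values, where 50.9% of all tested genes were positive. No overlap between the lines was seen for 5 of the 7, beside 47.3% of all tested genes. Flt3, a receptor of early progenitors, rose from 1.7 and 1.65 CPM to 3.84 and 3.11 CPM (log2 change 1.04 ± 0.27, edgeR adjusted p = 0.0418). That call was lost in limma-voom (adjusted p = 0.0545), in DESeq2 (0.504), without resistant replicate 1 (0.329) and without resistant replicate 2 (0.0557). The chemokine Ccl9 fell from 8.02 and 7.87 CPM to 4.49 and 4.46 CPM (-0.83 ± 0.17, adjusted p = 0.00997, or 0.217 in DESeq2). Notch1, the receptor that directs progenitors to the T lineage, stood at 21 and 30.9 CPM against 19.1 and 18.3 CPM and did not pass (-0.45, edgeR adjusted p = 0.106). It was called lower without sensitive replicate 1 (log2 change -0.73, adjusted p = 2.07e-08) and without resistant replicate 1 (-0.49, 0.0418), and its log2 change was -0.17 without sensitive replicate 2.

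**Figure D4:**
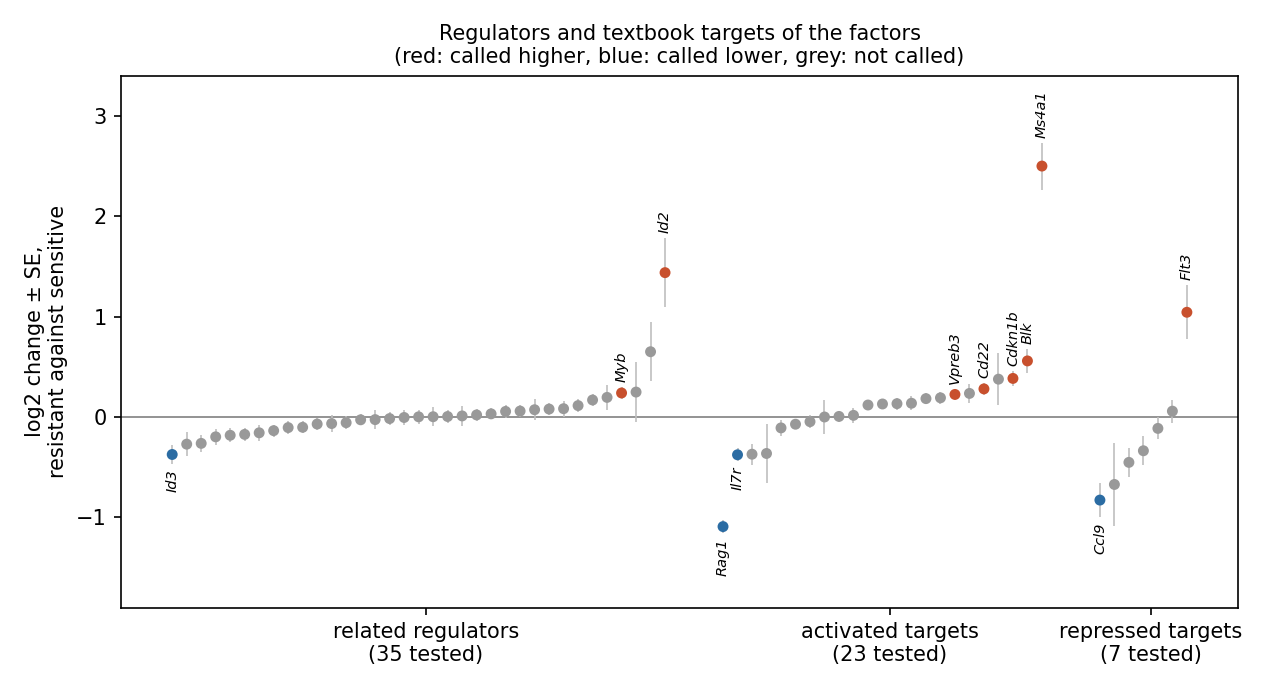
Log2 change with SE (n = 2 per line) of the tested genes of 3 lists, 35 related regulators, 23 activated targets and 7 repressed targets, sorted within each list. Called genes are coloured and named; 2, 5 and 1 were higher and 1, 2 and 1 lower in the resistant line.

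Around Ebf3 on chromosome 7, 20 other genes have their annotated start within 1 Mb, of which 3 had a row and 2 were tested, and neither was called by edgeR, beside 3.73% of all tested genes, while 1 had an unadjusted p below 0.05, beside 16.9%. DESeq2 also called 0, beside 1.74%. Glrx3, a glutaredoxin of iron-sulphur handling, stood at 182 and 180 CPM in the sensitive and 210 and 204 CPM in the resistant libraries (log2 change 0.19 ± 0.06, edgeR adjusted p = 0.0773), and was called without sensitive replicate 1 (0.00582) and without sensitive replicate 2 (0.0124). 9430038I01Rik had a log2 change of 0.11 (adjusted p = 0.815). Mgmt was too scarce to be tested, with 0 counts in both sensitive libraries and 3 in each resistant library.

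Over the 4 libraries, the 5 candidate genes with the pattern most like that of Ebf3 were Rbm34, Cpeb2, Bcl2, Spg20 and Rnf213. Likeness was the Euclidean distance between log2 CPM values centred per gene, over 8092 candidates whose log2 CPM averaged 3 or more. Immunoglobulin genes, predicted and clone-named genes and the 10 factors were left out of the candidates. The 5 lay at distances of 0.257, 0.287, 0.442, 0.548 and 0.616. Rbm34, an RNA-binding protein gene, went from 81.8 and 82.5 CPM to 315 and 331 CPM (3.93-fold), and Cpeb2, a regulator of mRNA polyadenylation, from 10.0 and 11.7 CPM to 39.5 and 41.6 CPM (3.77-fold). With 2 libraries per line this measure mostly ranks genes by the size of their rise.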

How the data were processed

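Gene expression was measured by RNA sequencing of total RNA in 4 libraries, 2 per line, grouped by their titles. The values are the authors' deposited counts, whole numbers per Ensembl gene in 1 table. Per the submitters' processing notes, the tools included TopHat and Bowtie2, HTSeq, cutadapt 1.7, FastQC and limma, with the builds GRCm38 and mm10. The strand setting and the order of steps were not given in these sources.

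Symbols, exon lengths and positions came from GENCODE M21 (GRCm38), which matched 16407 of 16591 identifiers. Promoter windows came from the RefSeq table of GRCm38.p6, which holds no entry for Ikzf3. Counts were fitted over all genes with edgeR 4.0.16 in R 4.3.3 (glmQLFit, glmQLFTest; TMM factors, group alone, filterByExpr with a minimum count of 10 and a total of 15), with Benjamini-Hochberg adjustment and calls below 0.05. SEs came from the F statistic, and 95% intervals from its degrees of freedom. Shares carry exact Clopper-Pearson intervals.

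The factors and gene lists were chosen with earlier results of these data known. Some genes of the lists are not reported here and were left out of the lists' counts, sums and medians after the first analysis. Named genes were all 10 factors, called genes of each list (at most 8), fixed regulators and targets, tested genes within 1 Mb of Ebf3 and the 5 nearest patterns. Alternatives were other scalings, no filter, DESeq2 1.42.0, limma-voom (limma 3.58.1), the replicate number as a block and leaving out each library. The scripts were tested on simulated data.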

Additional observations from a re-analysis of the deposited data

How the results depend on the processing

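The log2 change of Ebf3 ran from 2.07 to 2.30 over the 12 settings run, and both ends came from leaving out a library. Its calls are not read as support, since the list was built around this rise. No other factor was called in any of the 12 except Tcf3 without sensitive replicate 1 (-0.24). The log2 change of Ebf1 ranged from -0.088 to 0.067 over the fits that left out a library. Ebf3 per 100 Ebf1 counts per kb was 6.26 in the sensitive and 28.8 in the resistant line, or 7.09 and 32.6 with the length of the longest transcript and 5.92 in the sensitive line with no length correction, and ranged from 6.07 to 6.46 and from 27.4 to 30.2 over single libraries.

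The number of all genes called was 445, with 208 in DESeq2 and a range of 270 to 1381 when a library was left out, where the lone library is assumed to vary like the other line. Over the same fits 1 to 2 factors were called, 1 to 8 related regulators (0 in DESeq2), 3 to 11 activated targets, 1 to 3 repressed targets (0 in DESeq2, 1 in limma-voom) and 0 to 1 of the genes within 1 Mb of Ebf3. Within 2 Mb, 2 of 7 tested genes were called, both higher (3.73% of all tested genes were called), Bnip3 and Mapk1ip1, named after their values were seen. DESeq2 called neither (adjusted p = 0.829 and 0.193), Mapk1ip1 was not called in edgeR without resistant replicate 2 (0.0597), and the log2 change of Bnip3, 0.67 in edgeR, ran from 0.32 to 1.09 when a library was left out. For 40 single genes other than Ebf1 and Ebf3, the 11 alternatives gave 440 values, of which 385 kept sign and call, 28 lost and 12 gained a call with the sign kept, and 15 changed sign without a call in either fit. The cause was not tested. The log2 change of 9430038I01Rik ranged from -0.16 to 0.38 when a library was left out, that of Tcf4 from -0.033 to 0.040, Tcf12 from -0.034 to 0.071, Cd79a from -0.039 to 0.048 and Map2 from -0.071 to 0.18.

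Same-numbered libraries of the lines did not deviate together (correlation of -0.02 over the tested genes), and nothing in the labels ties them. Over the 8746 genes whose log2 CPM averaged 3 or more, the correlation was -0.10. With the replicate block, 595 genes were called, including 1 factor, 3 related regulators, 8 activated targets, 3 repressed targets and 0 neighbours of Ebf3, and the log2 change of Ebf3 was 2.19. Of the single genes, the block gained the calls of Rag2 (adjusted p = 0.0151) and Notch1 (0.00213), both lower, and lost none. At 124 to 133 counts per sensitive library, counting error limits Ebf3 more than any other factor.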
